A study of Mus musculus with 8 samples.

Results

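Transcripts of 9 enzyme genes of the tricarboxylic acid cycle (Cs, Idh3a, Idh3b, Idh3g, Ogdh, Dlst, Sucla2, Suclg1 and Mdh2) were compared between brown adipose tissue (BAT) of obese db/db mice and of wild-type (WT) mice. The genes were taken by name, after Ensembl identifiers were matched to mouse symbols. All 9 were found among the 31053 genes of the count table, and 9 of 9 passed the filter on low counts, which left 9264 genes to test. Dlst was the only one of the 9 that differed between the genotypes, with a level 25.4% lower in db/db BAT. Among all genes tested 27.7% differed and 11.9% were lower, so that 1 lower gene of 9 is near the share of all genes. The call of Dlst was lost when any 1 of 3 libraries was left out (WT replicate 2, WT replicate 4 or db/db replicate 1), when at least 10 counts were asked in every sample, and with the level of muscle genes as a covariate. The db/db library labelled replicate 1 was the lowest of the 8 libraries for 9 of 9 genes.

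Bulk RNA-seq was performed on BAT of 8-week-old male mice, with 4 WT and 4 db/db samples. The labels give the strain as C57BL6/J for both genotypes, and the study's methods name the db/db strain B6.BKS(D)-Leprdb/J, whose mutation of the leptin receptor gene Lepr is present in all tissues and not in brown adipocytes alone. The study's methods and its list of materials name different vendors for the WT mice, so that it is not known here whether both genotypes came from the same vendor. Both groups shared the age, the sex, the tissue, a normal diet and a fast before tissue collection, and the sources used here name no other allele or agent. Replicates are different mice per the study's figure legends.

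The tricarboxylic acid cycle runs in the mitochondrial matrix. It oxidizes acetyl-CoA made from pyruvate and fatty acids to carbon dioxide, and it passes electrons to the respiratory chain as NADH and through succinate dehydrogenase. Brown adipocytes are packed with mitochondria, in which uncoupling protein 1 (Ucp1) dissipates the energy released by this oxidation as heat. Citrate synthase opens the cycle, the isocitrate and alpha-ketoglutarate dehydrogenases release carbon dioxide, succinyl-CoA ligase makes a nucleoside triphosphate, and succinate dehydrogenase, fumarase and malate dehydrogenase return the chain to oxaloacetate.

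Libraries held 2374079 to 2615009 counts in WT and 2382722 to 3240074 in db/db, so that 3 counts, the smallest level taken as detectable, corresponded to 0.902 to 1.33 CPM (read counts scaled to a common library size, here the TMM-scaled total of the tested genes). Each of the 9 genes had at least 820 counts in each library. Lepr had 0 counts in each library, so its transcript gives no check of the genotype. The labels name the stromal vascular fraction as the cell type, whereas the adipocyte genes Adipoq (1245 to 2112 CPM), Fabp4 (5069.8 to 15139 CPM), Ucp1 (1056 to 2754 CPM) and Cidea (1254 to 4787 CPM) were abundant in all 8 libraries. Of the 9264 genes tested, 27.7% differed between the genotypes at an adjusted p of 0.05 (edgeR quasi-likelihood test with Benjamini-Hochberg adjustment), 11.9% lower and 15.8% higher in db/db, and the median log2 fold change was 0.0066.

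The db/db library labelled replicate 1 stood apart from the other 3 db/db libraries. Its mitochondrially encoded transcripts took 30.7% of the counts, whereas that share was 36.8 to 37.6% among db/db replicates 2 to 4 and 31.9 to 34.0% in WT. The 14 skeletal muscle genes used as markers had a geometric mean of 445 CPM in it, compared with 78.7 to 205 CPM for replicates 2 to 4 of db/db and 14.9 to 69.6 CPM in WT. Muscle markers were higher in db/db for 14 of 14 genes by edgeR, for 10 by DESeq2, for 11 by limma-voom and for 11 by edgeR without replicate 1, none of them was at 0 in all libraries, and their summed level ran from 2272 to 11483 CPM in db/db and from 408 to 1539 CPM in WT. The macrophage markers, of which 9 of 10 were higher in db/db, summed to 686 to 1233 CPM in db/db and 151 to 196 CPM in WT, with the highest sum in the same library. The other macrophage marker had a log2 fold change of -1.03, which did not pass the test. Markers of white adipocytes summed to 1251 to 1374 CPM in db/db and 103 to 292 CPM in WT, where 3 of 5 were higher and the other 2 had estimates below 0 that did not pass the test. The 6 brown adipocyte markers summed to 7614 to 9177 CPM in WT and to 3041 to 5659 CPM in db/db, lowest in replicate 1 and without overlap, and 3 of the 4 that could be tested were lower in db/db. The remaining tested one had a log2 fold change of 0.56, which did not pass the test. Fibroblast markers were higher in db/db for 5 of 5 genes and summed to 903 to 1889 CPM, highest in replicate 1, against 475 to 587 CPM in WT. Without that library 3 of the 5 were called higher by edgeR, and limma-voom called 4 with all libraries. Endothelial markers were lower for 3 of 5 tested and summed to 169 to 205 CPM in db/db against 239 to 304 CPM in WT. General adipocyte markers were lower for 1 and higher for 2 of 6, with overlapping sums (14331 to 19236 CPM in db/db, 11392 to 20386 CPM in WT). Erythroid markers were called higher for 1 of 4 by edgeR, and for 4 of 4 without db/db replicate 1. They summed to 5310 to 14138 CPM in db/db and 2588 to 7165 CPM in WT. The part of other cells in the values below was not tested, and in bulk tissue fewer cells of a type and less RNA per cell cannot be told apart.

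Dlst encodes the dihydrolipoamide succinyltransferase core of the alpha-ketoglutarate dehydrogenase complex, and Cs encodes citrate synthase, the enzyme that starts the cycle. The 250 bases before their RefSeq starts (GRCm38.p6) are shown, because Dlst was the member that differed and Cs is the usual reference enzyme for mitochondrial content. Dlst lies on chromosome 12 from 85110833 to 85134845 on the plus strand, and the printed bases are chr12:85110583-85110832. Cs lies on chromosome 10 from 128337734 to 128362479 on the plus strand, and the printed bases are chr10:128337477-128337726. Capitals would mark any of the 3 motifs searched on both strands, and neither sequence has a match.
Dlst: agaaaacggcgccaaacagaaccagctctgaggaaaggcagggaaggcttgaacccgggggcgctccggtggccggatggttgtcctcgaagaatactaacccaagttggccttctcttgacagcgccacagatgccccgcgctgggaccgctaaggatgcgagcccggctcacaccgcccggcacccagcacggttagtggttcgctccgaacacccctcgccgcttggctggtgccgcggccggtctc
Cs: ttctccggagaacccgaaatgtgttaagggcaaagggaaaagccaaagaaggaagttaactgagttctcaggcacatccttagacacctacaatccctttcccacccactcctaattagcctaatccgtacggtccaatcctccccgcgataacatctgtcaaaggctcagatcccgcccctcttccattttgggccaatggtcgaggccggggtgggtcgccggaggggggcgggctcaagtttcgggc

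The 3 motifs, which do not contain one another, were the estrogen-related receptor element TNAAGGTCA, the NRF1 core GCGCATGCG and the ETS core CCGGAAGT. They stood in 1.14%, 1.45% and 2.88% of the 32851 promoters of the same length. A RefSeq promoter was matched for 8 of the 9 genes, with none for Idh3a, and 1 of those 8 held a motif, the NRF1 core before a start of Ogdh. A gene was counted if any of its starts had a match, and Ogdh has several starts. The shares above count single promoters, so they are not directly comparable with counts of genes. Of 8 further genes of the cycle, 7 had a promoter and 0 held a motif. A match describes the letters in the window, and the absence of a match says only that these letters are not in it.

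To ask whether the transcripts of the cycle differ between the genotypes, levels were compared in the order of the reactions. Cs reached 696, 856, 752 and 833 CPM in WT replicates 1 to 4 and 460.0, 841, 841 and 658 CPM in db/db replicates 1 to 4. In db/db, 2 libraries lay within the WT range and 2 below it. The mean ± SD of 4 libraries was 784 ± 73.8 CPM for WT and 699.9 ± 182 CPM for db/db, and the log2 fold change of -0.16 (SE 0.17) was not distinguishable from 0 (edgeR adjusted p = 0.514). A short stretch is shared with Csl, a citrate synthase-like gene, which covers 0.403% of the distinct 75-base sequences of Cs transcripts, and Csl had at most 1 count in a library.

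Idh3a, Idh3b and Idh3g encode the catalytic alpha subunit and the beta and gamma subunits of the NAD+-dependent isocitrate dehydrogenase, a regulated step of the cycle. Idh3a (chromosome 9, 54586334 to 54604661, plus strand) was at 548, 522, 459 and 513 CPM in WT and at 309, 559, 458 and 399.5 CPM in db/db. The db/db libraries spread on both sides of the WT range, from the lowest to the highest of all 8. Idh3b (chromosome 2, 130279309 to 130284547, minus strand) was at 717, 900.2, 845 and 849 CPM in WT and at 527, 798, 754 and 761 CPM in db/db. For this subunit 3 of the 4 db/db libraries lay inside the WT range. Idh3g (chromosome X, 73778963 to 73786897, minus strand) was at 748, 771, 717 and 772 CPM in WT and at 504, 576, 690.2 and 741 CPM in db/db, with 3 db/db libraries below the WT range. The log2 fold changes were -0.24 (SE 0.16), -0.22 (SE 0.15) and -0.26 (SE 0.14) for the alpha, beta and gamma subunits, and none passed the test (edgeR adjusted p = 0.280, 0.284 and 0.174). Idh3b shares 5 exonic bases with Nop56 on the opposite strand, and the strand setting of the counting is not given in the sources used here.

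Ogdh and Dlst encode the first and second components of the alpha-ketoglutarate dehydrogenase complex, which makes succinyl-CoA. Ogdh (chromosome 11, 6291633 to 6356642, plus strand) was at 961, 966, 724 and 884 CPM in WT and at 561, 871, 876 and 921 CPM in db/db. Only replicate 1 of db/db lay outside the WT range, and the log2 fold change was -0.13 (SE 0.16; edgeR adjusted p = 0.589). Dlst was at 399, 510.2, 417 and 468 CPM in WT and at 258, 358, 363 and 359 CPM in db/db. Every db/db library lay below every WT library, and replicates 2 to 4 of db/db were close to one another. Such a separation in this direction was found in 12.7% of all genes tested, and in the opposite direction in 15.3%. The mean ± SD of Dlst over 4 libraries was 449 ± 50.3 CPM for WT and 335 ± 51.3 CPM for db/db, with a log2 fold change of -0.42 (SE 0.14, 95% interval -0.72 to -0.12; edgeR adjusted p = 0.0336). Without db/db replicate 1 the log2 fold change of Dlst was -0.32 with an adjusted p of 0.0716 (edgeR). Without WT replicate 2 or 4 it was -0.37 or -0.41, with an adjusted p of 0.105 or 0.0799 (edgeR).

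**Figure D1:**
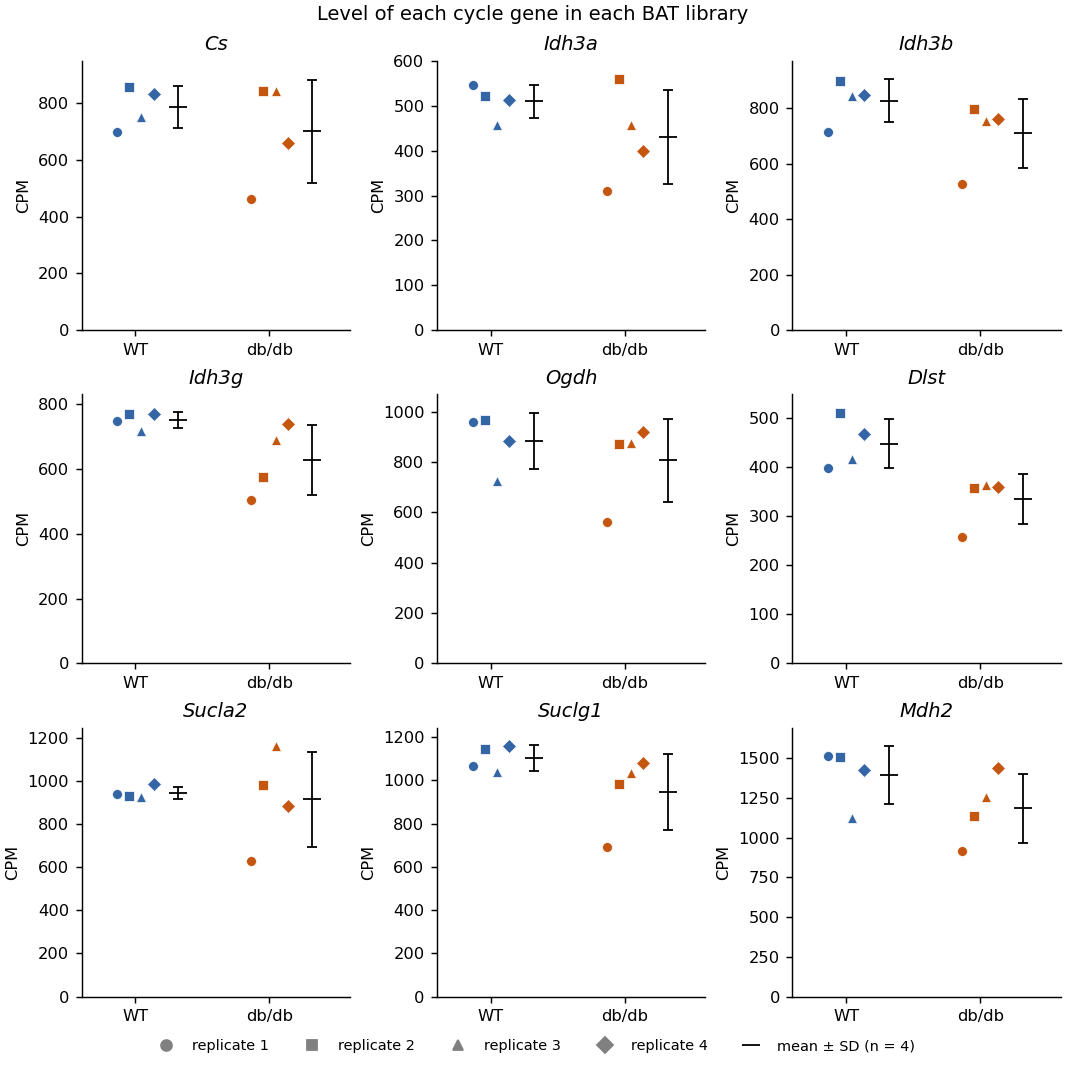
Level of each of the 9 cycle genes, in CPM on a linear axis from 0, in the 4 WT and 4 db/db BAT libraries. Symbols mark the replicate number, and the bar is the mean ± SD of 4 libraries. Replicate 1 of db/db is the lowest library in 9 of 9 panels, and the genotypes are separate only for Dlst.

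Succinyl-CoA ligase pairs the alpha subunit encoded by Suclg1 with a beta subunit, encoded by Sucla2 for the ADP-forming enzyme and by Suclg2 for the GDP-forming enzyme. Sucla2 (chromosome 14, 73525319 to 73596142, plus strand) was at 938, 931, 925 and 985 CPM in WT and at 630.2, 982, 1161 and 886 CPM in db/db. The WT libraries lay close together while those of db/db spread to both sides, and the log2 fold change was -0.05 (SE 0.16; edgeR adjusted p = 0.860). Its 95% interval on the fold scale was 0.767 to 1.22. Suclg1 (chromosome 6, 73248382 to 73276911, plus strand) was at 1068, 1145, 1038 and 1158 CPM in WT and at 691, 984, 1035 and 1081 CPM in db/db. In db/db 3 libraries lay below the WT range, replicate 3 only just, and the log2 fold change was -0.22 (SE 0.15; edgeR adjusted p = 0.290).

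Mdh2 encodes the mitochondrial malate dehydrogenase, which closes the cycle. The gene (chromosome 5, 135778480 to 135790398, plus strand) was at 1514, 1510.1, 1124 and 1428 CPM in WT and at 917, 1136, 1253 and 1436 CPM in db/db. The genotypes overlapped over most of their range, and the log2 fold change was -0.23 (SE 0.15; edgeR adjusted p = 0.282).

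In all, 1 of the 9 genes was called lower and 0 higher in db/db, beside 11.9% and 15.8% of all genes tested. All 9 estimates were below 0, from -0.42 for Dlst to -0.05 for Sucla2, with a median of -0.22 beside 0.0066 for all genes tested. The 95% intervals of the 8 genes that were not called included a fold of 1, with lower bounds between 0.671 for Idh3a and 0.767 for Sucla2. An adjusted p above the threshold does not show that these genes were equal between the genotypes.

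The estimates moved with 1 library. In db/db replicate 1 the 9 genes were at 59.0% (Cs) to 75.3% (Idh3g) of the mean of the other 3 db/db libraries. The other 3 db/db libraries averaged 0.803-fold (Dlst) to 1.07-fold (Sucla2) of the WT mean. Without replicate 1, 0 of the 9 genes was called by edgeR and 1, Dlst, had an unadjusted p under 0.05. In that fit 7 of 9 estimates were below 0 and the median log2 fold change was -0.11, where 10.3% of all genes tested were lower in db/db. Dlst stayed the member with the lowest estimate, and Sucla2 had the highest, at 0.09. With the level of the muscle genes as a covariate, 4 of the 9 estimates were below 0, their median was 0.013, and the log2 fold change of Dlst was -0.32 (SE 0.24; edgeR adjusted p = 0.536). The muscle level did not overlap between the genotypes, and the SE of Dlst was 0.14 without the covariate, so that a call lost in that fit does not show that the difference went away.

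The 9 genes together took 0.790%, 0.793%, 0.713% and 0.773% of all counts in WT replicates 1 to 4. In db/db they took 0.522% (95% Wilson interval 0.514 to 0.530) in replicate 1, and 0.689%, 0.704% and 0.683% in replicates 2 to 4. All db/db libraries were below the WT libraries in this share, with replicate 3 of db/db next to replicate 3 of WT. The separation depended on the denominator. As a share of the counts of nuclear genes alone, the 9 genes took 1.16%, 1.20%, 1.06% and 1.17% in WT and 0.753%, 1.09%, 1.13% and 1.09% in db/db, where replicates 2 to 4 of db/db lay within the WT range. The intervals cover counting error only.

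**Figure D2:**
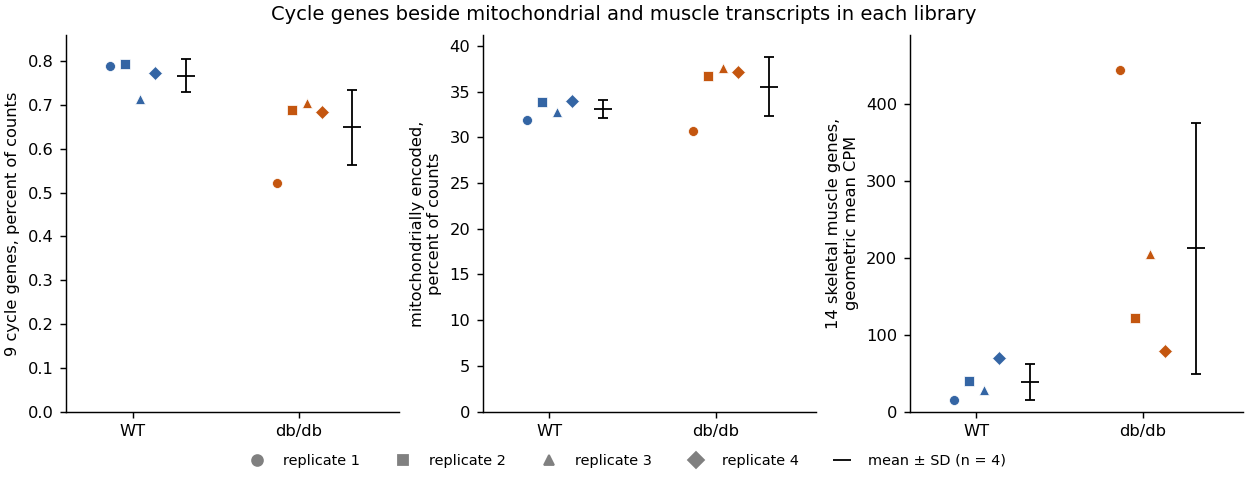
Percent of counts in the 9 cycle genes, percent of counts in mitochondrially encoded genes, and geometric mean CPM of 14 skeletal muscle genes, on linear axes from 0, with 1 symbol per library and the mean ± SD of 4 libraries. Replicate 1 of db/db has the lowest share of cycle transcripts (0.522%), the lowest mitochondrially encoded share (30.7%) and the highest muscle level (445 CPM).

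Within the 9 genes, Sucla2 took 12.4 ± 0.710% of the counts of the 9 genes for WT and 13.7 ± 1.46% for db/db (mean ± SD of 4 libraries). Dlst took 5.86 ± 0.433% in WT and 5.05 ± 0.182% in db/db, with overlapping ranges of 5.26 to 6.29% and 4.89 to 5.31%. Cs took 10.3 ± 0.729% in WT and 10.4 ± 1.35% in db/db.

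Ratios of 2 transcripts within a library, which do not depend on library size, were compared by exact two-sided permutation tests over 4 ratios, where the smallest possible p is 0.0286. The ratio of Ogdh to Dlst counts was 2.41, 1.89, 1.73 and 1.89 in WT and 2.17, 2.43, 2.41 and 2.56 in db/db. WT replicate 1 overlapped the db/db range (exact p = 0.0571, adjusted 0.114). The ratio of Idh3b to Idh3g was 1.10 ± 0.102 in WT and 1.14 ± 0.168 in db/db (exact p = 0.771, adjusted 0.771, n = 4 each). The ratio of Sucla2 to Suclg2 was 37.7 ± 13.3 in WT and 41.9 ± 3.15 in db/db (exact p = 0.486, adjusted 0.648, n = 4 each), and it is uncertain because 11.6% of the 75-base sequences of Suclg2 also occur in the gene Gm15163. Its log2 difference of 0.21 became 0.42 without WT replicate 1 (exact p = 0.0286, unadjusted and the smallest that 3 against 4 samples can give) and 0.019 without WT replicate 3 (exact p = 0.886).

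The fourth ratio set the NAD+-dependent isocitrate dehydrogenase against Idh2, the NADP+-dependent isocitrate dehydrogenase of the same compartment, which can interconvert the same metabolites and makes NADPH. Idh2 was at 383, 378, 323 and 384 CPM in WT and at 458, 496, 717 and 669 CPM in db/db. Every db/db library exceeded every WT library, and the log2 fold change of Idh2 was 0.67 (SE 0.15; edgeR adjusted p = 0.00303). The ratio of Idh3a to Idh2 counts was 1.43, 1.38, 1.42 and 1.33 in WT and 0.676, 1.13, 0.639 and 0.597 in db/db. The genotypes did not overlap (exact p = 0.0286, the smallest that 4 against 4 samples can give), but the p adjusted over the 4 ratios was 0.114. Without db/db replicate 1 the log2 fold change of Idh2 was 0.77 (edgeR adjusted p = 0.000378), whereas with the muscle genes as a covariate it was 0.84 and the call was lost (edgeR adjusted p = 0.0528). Without that library the estimates of the 9 cycle genes lay between -0.32 and 0.09.

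**Figure D3:**
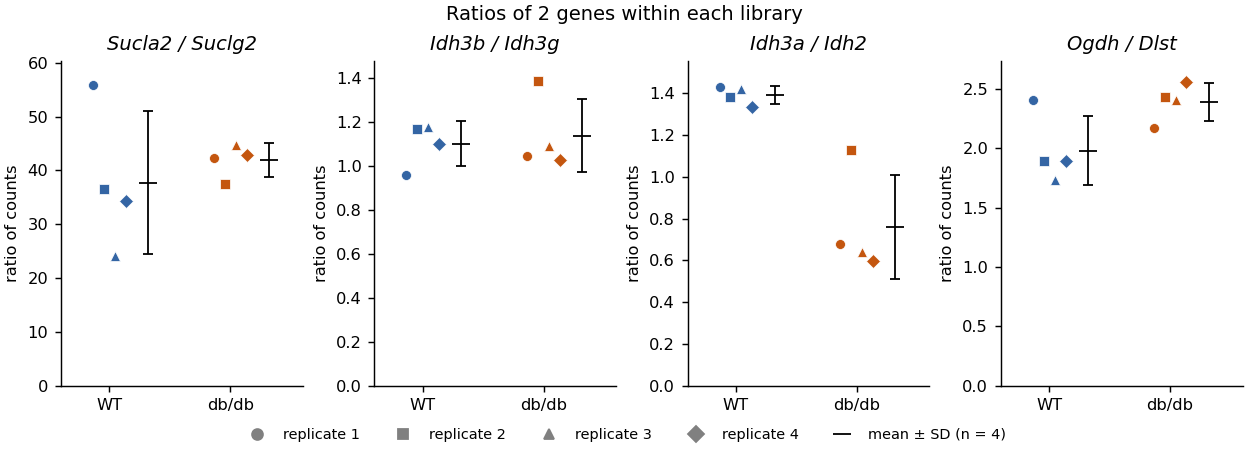
Ratios of the counts of 2 genes within each library, on linear axes from 0, with 1 symbol per library and the mean ± SD of 4 libraries. The Idh3a to Idh2 ratio lies between 1.33 and 1.43 in WT and between 0.597 and 1.13 in db/db, and the other 3 ratios overlap between the genotypes.

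The cytosolic isozymes did not pass the edgeR test, and their calls changed with the tool, scaling and filter. Idh1, the NADP+-dependent isocitrate dehydrogenase of cytosol and peroxisomes, was at 149.7 to 194 CPM in WT and 187 to 227 CPM in db/db (edgeR adjusted p = 0.0898, or 0.0466 and called higher when at least 10 counts were asked in every sample). Mdh1, the cytosolic malate dehydrogenase, was at 617 to 721 CPM in WT and 489 to 603 CPM in db/db, with every db/db library below every WT library (log2 fold change -0.32, edgeR adjusted p = 0.0652), and it was called lower by DESeq2 (adjusted p = 0.0271), limma-voom (adjusted p = 0.0468) and edgeR scaled by library totals alone (adjusted p = 0.0365). Aco1, an RNA-binding enzyme of the cytosol, had a log2 fold change of -0.45 with an adjusted p of 0.0634 by edgeR, 0.0686 by DESeq2 and 0.0462 by limma-voom, and edgeR called it with library totals alone or genes of at least 1 count (adjusted p = 0.0474 and 0.0436). Csl, Ogdhl and Dhtkd1, the paralogs of Cs and Ogdh, had at most 5 counts in a library and were not tested.

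Another 8 genes of the cycle were examined in the same way, and 2 of them were lower in db/db and 0 higher, beside 11.9% and 15.8% of all genes tested. These were Sdha and Sdhb, the flavoprotein and iron-sulfur subunits of succinate dehydrogenase. Sdha was at 1278, 1405, 1192 and 1314 CPM in WT and at 696, 879, 972 and 983 CPM in db/db, a log2 fold change of -0.56 with an SE of 0.14 (edgeR adjusted p = 0.00588). Each db/db library lay below the lowest WT library. Sdhb was at 2428, 2349, 1854 and 2236 CPM in WT and at 1183, 1472, 1522 and 1887 CPM in db/db, a log2 fold change of -0.55 with an SE of 0.15 (edgeR adjusted p = 0.0128). In this case db/db replicate 4 exceeded the lowest WT library.

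Both genes were called without db/db replicate 1 as well, where 10.3% of all genes tested were lower. Their log2 fold changes in that fit were -0.46 for Sdha and -0.45 for Sdhb (edgeR adjusted p = 0.00775 and 0.0193). With the muscle genes as a covariate 0 of the 8 passed the edgeR test, beside 166 lower and 438 higher of all 9264 genes tested. None of the 8 had an unadjusted p under 0.05. The log2 fold changes were then -0.38 for Sdha and -0.22 for Sdhb (SE 0.24 for both; edgeR adjusted p = 0.426 and 0.695). The other 2 subunits of succinate dehydrogenase, which anchor it in the membrane, had log2 fold changes of 0.15 for Sdhc and -0.34 for Sdhd (edgeR adjusted p = 0.611 and 0.566). Sdhd had 20 counts in db/db replicate 1 and 64 to 177 in the other 7 libraries, and without that library its log2 fold change was 0.015. Dld, the dihydrolipoamide dehydrogenase that serves both the pyruvate and alpha-ketoglutarate dehydrogenase complexes, had a log2 fold change of -0.41 (SE 0.16; edgeR adjusted p = 0.0610). The values were -0.25 for fumarase, Fh1, -0.33 for Suclg2 and -0.07 for Mrps36, which encodes a small subunit of the alpha-ketoglutarate dehydrogenase complex (edgeR adjusted p = 0.335, 0.355 and 0.939). Without db/db replicate 1 the values were -0.11 for Fh1, -0.18 for Suclg2, 0.23 for Mrps36, 0.27 for Sdhc and -0.29 for Dld, none of them called. Mrps36 had only 5 to 30 counts in a library and shares 11.3% of its 75-base sequences with other genes. The difference between the 9 listed genes, with 1 called, and these 8, with 2 called, was not tested.

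**Figure D4:**
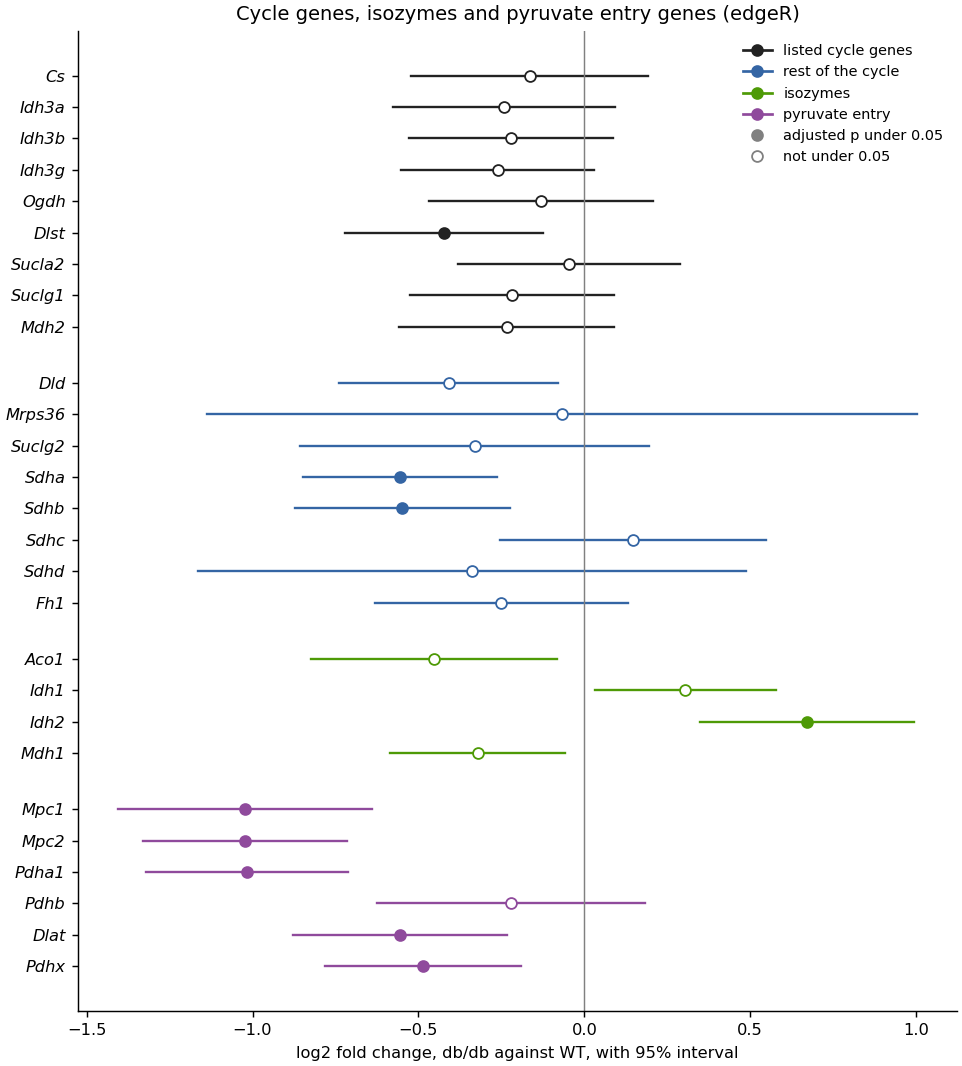
Log2 fold change in db/db against WT BAT with its 95% interval (edgeR) for the 9 listed cycle genes, 8 further genes of the cycle, the tested isozymes and the pyruvate entry genes. Filled points passed an adjusted p of 0.05, which holds for Dlst, Sdha, Sdhb, Idh2 and 5 pyruvate entry genes.

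The genes that bring pyruvate into the cycle were lower in db/db for 5 of 6 tested, and none was higher, beside 11.9% and 15.8% of all genes tested. Pdha1, the catalytic alpha subunit of pyruvate dehydrogenase, was at 1319, 1525, 1149 and 1446 CPM in WT and at 568, 769.9, 605 and 745 CPM in db/db. No db/db library reached the WT range, and the log2 fold change of Pdha1 was -1.02 (SE 0.14; edgeR adjusted p = 5.25e-05). Mpc1 and Mpc2, the subunits of the mitochondrial pyruvate carrier, had log2 fold changes of -1.02 and -1.02 (edgeR adjusted p = 0.000395 and 5.45e-05). Dlat (-0.56) and Pdhx (-0.49) were also lower, and Pdhb had a log2 fold change of -0.22 (edgeR adjusted p = 0.426). The same 5 genes were called without db/db replicate 1, where 10.3% of all genes tested were lower. With the muscle genes as a covariate 2 of the 6, Pdha1 and Mpc2, were called lower, beside 166 of all 9264 genes tested in that fit. The log2 fold changes of those lost were -0.56 for Mpc1, -0.38 for Dlat and -0.42 for Pdhx (edgeR adjusted p = 0.260, 0.453 and 0.369).

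Among 13 tested genes that fill or drain the cycle, 4 were lower and 4 higher, beside 11.9% and 15.8% of all genes tested. Without db/db replicate 1 the counts were 2 lower, beside 10.3% of all genes tested, and 3 higher, beside 1281 of 9385 genes tested. Me3 was then no longer called (log2 fold change -0.51, edgeR adjusted p = 0.0746). With the muscle genes as a covariate the counts were 2 lower, Pcx and Slc25a1, and 1 higher, Got2, beside 166 lower and 438 higher of all 9264 genes tested. Pcx, the pyruvate carboxylase that makes oxaloacetate, was at 285, 264, 252 and 248 CPM in WT and at 145, 135, 123 and 137 CPM in db/db (log2 fold change -0.96, edgeR adjusted p = 1.82e-05). Slc25a1, the citrate carrier, had a log2 fold change of -1.45 (edgeR adjusted p = 2.90e-05), and Me3, a mitochondrial malic enzyme, one of -0.63 (edgeR adjusted p = 0.0242). Got2, the mitochondrial aspartate aminotransferase, was at 26.9 ± 4.17 CPM in WT and 79.7 ± 9.03 CPM in db/db (SD, n = 4 libraries; log2 fold change 1.57, edgeR adjusted p = 1.93e-06). Got1, the cytosolic aspartate aminotransferase, was at 2.02 to 12.3 CPM in WT and 12.6 to 41.2 CPM in db/db, and Slc25a12, an aspartate-glutamate carrier, at 2.02 to 12.3 CPM and 16.7 to 69.2 CPM. Both were highest in db/db replicate 1, which also had the highest muscle level, and both were called without it, with log2 fold changes of 1.15 and 1.48 (edgeR adjusted p = 0.0343 and 0.00843). With the muscle genes as a covariate the estimates were -0.16 for Got1 and -0.11 for Slc25a12 (edgeR adjusted p = 0.898 and 0.924).

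Of 7 tested genes for lipoate attachment and succinate dehydrogenase assembly, 0 differed by edgeR, DESeq2 or limma-voom, 2 had an unadjusted p under 0.05, and the smallest edgeR adjusted p was 0.0529 for Sdhaf3. Lipoate is the cofactor bound by Dlst and Dlat. In fatty acid oxidation, which supplies acetyl-CoA, 7 of 14 tested genes were lower and 0 higher, beside 11.9% and 15.8% of all genes tested, among them Etfb (log2 fold change -0.89), Echs1 (-0.80) and Hadha (-0.75). Acadm (0.22) and Etfa (0.07) had estimates above 0 and were not called (edgeR adjusted p = 0.363 and 0.847). Acadm was called higher in 1 alternative, without db/db replicate 1 and with TMM computed without mitochondrially encoded genes (edgeR adjusted p = 0.0459). In respiratory complexes III to V, 5 of 13 tested nuclear genes were lower and 0 higher, beside the same shares of all genes, among them Uqcrc2 (-0.49), Cox6c (-0.46) and Cyc1 (-0.44). With the strand setting unknown, values are uncertain for Pdha1, Me3 and Uqcrc2, which share 603, 569 and 504 exonic bases with the opposite-strand genes Map3k15, A230065N10Rik and Pdzd9. Etfb shares 617 exonic bases with Gm45233 on its own strand, so its value is uncertain as well. Shorter overlaps with counted genes, of 52 to 250 bases, were found for Mdh1, Esrra, Hadha, Echs1 and Cox6c. The median log2 fold changes of these lists were -0.39 for fatty acid oxidation and -0.31 for complexes III to V, beside -0.22 for the 9 cycle genes and 0.0066 for all genes tested. Without db/db replicate 1 the counts of lower genes were 6 of 14 and 2 of 13, which is 42.9% and 15.4%, beside 10.3% of all genes tested in that fit. Leaving out WT replicate 2 or 4 also gave 2 of 13 for complexes III to V, beside 902 of 9655 and 889 of 9665 genes tested. With the muscle genes as a covariate 0 genes of either list were called by edgeR, beside 166 lower and 438 higher of all 9264 genes tested. The log2 fold changes were then -0.55 for Etfb, -0.45 for Echs1 and -0.60 for Hadha, and -0.39 for Uqcrc2, -0.24 for Cox6c and -0.08 for Cyc1.

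Regulators of mitochondrial genes were lower for 4 of 9 tested, beside 11.9% of all genes tested. Ppargc1b (log2 fold change -1.19) and Esrra (-0.80), a coactivator and an estrogen-related receptor, were among them, as was the fatty acid receptor Ppara (-1.46), with edgeR adjusted p of 0.000491, 0.00491 and 0.00165. Perm1, with 4 to 58 counts in a library, was the only one with an estimate above 0 (0.72, edgeR adjusted p = 0.256). All 4 lower genes were also called without db/db replicate 1, where 10.3% of all genes tested were lower. With the muscle genes as a covariate 0 of the 9 were called, beside 166 lower and 438 higher of all 9264 genes tested. The log2 fold changes were then -0.68 for Ppargc1b, -1.02 for Esrra and -0.97 for Ppara (edgeR adjusted p = 0.245, 0.0925 and 0.202).

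Genes outside these lists were ranked by how closely their level followed the mean z-score of the 9 genes over the 8 libraries. The highest Pearson correlations were those of Coq9 (0.97), a ubiquinone biosynthesis gene, Acot13 (0.97), an acyl-CoA thioesterase of mitochondria, Tfcp2 (0.96), a transcription factor, Mrpl49 (0.96), a mitochondrial ribosomal protein, and Prkag2 (0.96), a regulatory subunit of AMP-activated protein kinase. Of 9127 genes, 46 had a correlation of at least 0.9. All genes were measured in the same 8 libraries and share their depth and composition, and the mean z-score was -2.10 in db/db replicate 1 and between 0.018 and 0.790 in the other 7 libraries, so that this ranking mostly describes genes that were low in that library. None of the 5 genes differed between the genotypes (edgeR adjusted p between 0.110 and 0.342).

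**Figure D5:**
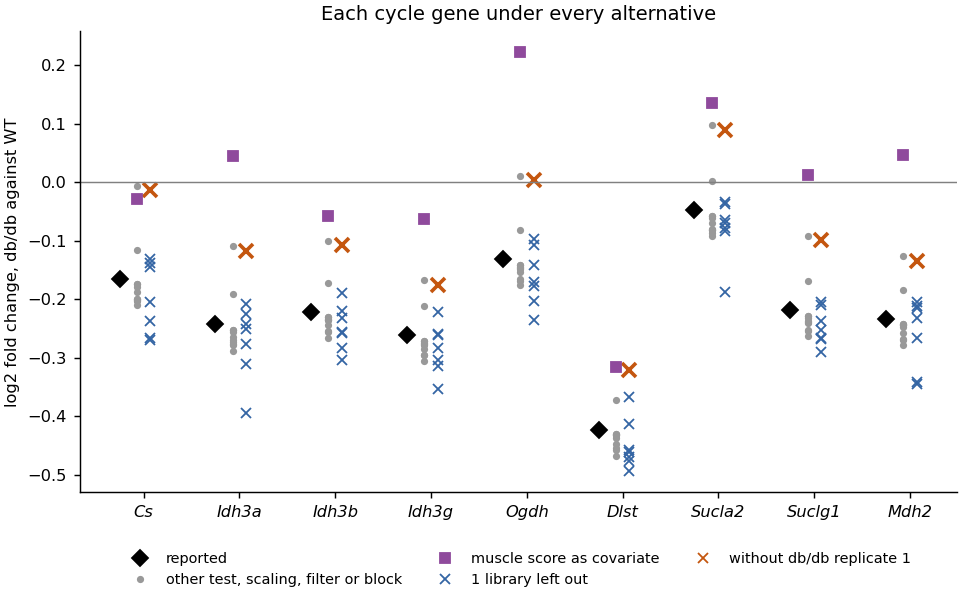
Log2 fold change in db/db against WT of each of the 9 cycle genes as reported (diamond), under another test, scaling, filter or the replicate block (grey points), with the muscle score as a covariate (square) and with 1 library left out (crosses, the one without db/db replicate 1 in orange). The 2 settings that leave out db/db replicate 1 and the muscle covariate moved the estimates upward. The filter of at least 10 counts in every sample did so by less, to a median of -0.17. Dlst had the lowest estimate in each setting.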

How the data were processed

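Total RNA of BAT was sequenced as single-end 75-base mRNA libraries by a commercial service. The study's methods name bbduk, STAR and HTSeq-count on mm10, whereas the submitters' processing notes name Trimmomatic, HISAT2 and DESeq2 with GRCm38 and mm10. The strand setting is not given in the sources used here, nor whether molecular identifiers were collapsed. The authors deposited raw counts per Ensembl gene, which were used here. A second deposited table of log2 normalized values was not used. Of 31053 genes, 31011 matched GENCODE M21 on the same build.

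Genes were filtered by filterByExpr (minimum count 10, minimum total 15), scaled by TMM and tested for genotype by quasi-likelihood in edgeR 4.0.16 (R 4.3.3), with Benjamini-Hochberg adjustment at 0.05. CPM values are counts scaled to the total of the tested genes times the TMM factor. Ratios within a library were tested by exact two-sided permutation. Folds are from edgeR, means and SDs from CPM. The procedure was tested on simulated data.

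The 9 genes and all lists were chosen with earlier results of these data known. Named were the 9 genes, 8 further genes of the cycle (1 gene of that list is not reported here), up to 3 genes in each direction with the smallest adjusted p from each pathway list, and the 5 genes with the most similar profile; Dlat, Pdhx, Pdhb and the marker genes were named after their values were seen. Alternatives were DESeq2 1.42.0, limma-voom (limma 3.58.1), 4 other scalings, 3 filters, the replicate block, the muscle score as a covariate and leaving out each library. Replicate numbers occur in both genotypes but mark different animals, with correlations of same-numbered deviations between -0.078 and 0.049. Replicates of 1 genotype differed by more than counting error (chi-square per degree of freedom 3.99 to 14.0). Figures were drawn with matplotlib.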

Additional observations from a re-analysis of the deposited data

Results flagged for a closer look

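Among 114 groups of 4 libraries examined with Dixon's criterion, 10 held a library far from the other 3, where chance alone gives about 5.7, or 1 in 20. In db/db replicate 1, Idh3b was at 527 CPM against 754 to 798 CPM for replicates 2 to 4 of db/db, Ogdh at 561 against 871 to 921 CPM, and Dlst at 258 against 358 to 363 CPM. In the same library the 9 cycle genes took 0.522% of the counts against 0.683 to 0.704%, and mitochondrially encoded genes 30.7% against 36.8 to 37.6%. Also in that library, Got1 was at 41.2 CPM against 12.6 to 16.9 CPM, Echs1 at 193 against 300.3 to 321 CPM, and Cyc1 at 382 against 560.3 to 593 CPM. Idh2 was at 323 CPM in WT replicate 3, against 378 to 384 CPM in the other WT libraries. The ratio of Idh3a to Idh2 was 1.13 in db/db replicate 2, and 0.597 to 0.676 in the remaining ones of db/db.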

How the results depend on the processing

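The number of the 9 cycle genes lower in db/db, 1 in the report, was 0 when at least 10 counts were asked in every sample, 0 with the muscle score as a covariate and 0 when TMM was computed without mitochondrially encoded genes and db/db replicate 1 was left out together, the last chosen after seeing the data. Leaving out 1 library gave 0 to 1, with 0 without WT replicate 2, WT replicate 4 or db/db replicate 1. The adjusted p of Dlst ranged from 0.0116 to 0.536 over the alternatives that changed the test, scaling, filter or terms, and from 0.0285 to 0.105 with 1 library left out (edgeR, DESeq2 and limma). For the 8 further genes of the cycle the count of 2 lower genes became 0 with the muscle score, and 2 to 4 with 1 library left out, 4 without db/db replicate 2, where Dld and Fh1 were added, and 3 without WT replicate 1 or 3, where Dld was added (adjusted p = 0.0435 and 0.0452). Dld also made it 3 with library totals alone, with genes of at least 1 count and with at least 1 CPM in 4 samples (0.0285, 0.0197 and 0.0485). With the muscle score 604 of 9264 genes differed, against 2568, and 72.5% of them were higher, against 57.1%. With the muscle score the estimates of Got1 and Slc25a12, called higher in the report, turned to -0.16 and -0.11, and no other named gene that was called changed direction under any alternative. Among the 33 other genes taken from the lists, of which some are not named in the text, 20 of 264 comparisons with 1 library left out and 36 of 393 others changed the call or direction. The replicate block called 2557 genes, 1 of the 9 cycle genes and 3 of the further cycle genes, since Dld then had an adjusted p of 0.0264, and it also called Sdhaf3 (adjusted p = 0.0440) and lost Slc25a11, an oxoglutarate carrier that was lower in the report's fit (adjusted p = 0.0561). Sdhaf3 was also called with upper quartile scaling, library totals alone, TMM without mitochondrially encoded genes and the filters of 1 count and 1 CPM (0.0308 to 0.0487). Slc25a11 was also lost with at least 10 counts in every sample (0.0699) and without WT replicate 1, 2 or 4 or db/db replicate 1 or 2 (0.0603 to 0.118). The numbers do not pair the animals. Sign-flip tests of the 4 ratios over same-numbered samples gave exact p from 0.125, the smallest that 4 pairs allow, to 0.625. Leaving out 1 library moved the log2 ratio differences to between 0.019 and 0.42 for Sucla2 to Suclg2, -0.06 and 0.09 for Idh3b to Idh3g, 0.22 and 0.38 for Ogdh to Dlst and -1.13 and -0.82 for Idh3a to Idh2. Me3 lost its call without WT replicate 1 or 2 or db/db replicate 1 or 2 (adjusted p = 0.0676, 0.0602, 0.0746 and 0.0530), and Cyc1 without WT replicate 1 or 2 or db/db replicate 1 (0.0571, 0.0671 and 0.0550). Cox6c lost it without WT replicate 4 (0.0577) and Pdhx without WT replicate 2 (0.0621), while Sdhaf3 gained one without WT replicate 1 or 3 or db/db replicate 4 (0.0265, 0.0462 and 0.0479), Aco1 without WT replicate 3 or db/db replicate 3 (0.0472 and 0.0172) and Mdh1 without db/db replicate 4 (0.0453). The scalings moved the median of all genes by less than 0.1 on the log2 scale. The cause of these changes was not tested. The 9 cycle genes had at least 820 counts in each library.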
